A study of Mus musculus with 12 samples.

Results

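DNA repair genes were followed in early thymic progenitors, the earliest T-lineage cells of the mouse thymus. They were chosen by a rule on gene symbols, set with earlier results of these data known. It took the Fanc and Ercc families, genes of the Rad, Msh and Mlh families, Brca1, Brca2, Rpa1 to Rpa3, Parp1, Parp2, Atm, Atr, Chek1, Chek2, Mre11a and Nbn. The rule found 55 genes of the 13016 in the deposited table, and all 55 were among the 10690 genes tested. Each of 12 libraries was made from 100 sorted cells of C57BL/6 mice, 4 libraries per genotype. The dKO_Flt3ITD cells carried Ezh2 fl/fl, Runx1 fl/fl, Rag1Cre+ and 1 Flt3 allele with an internal tandem duplication (ITD/+), a change that leaves this cytokine receptor active. The dKO cells carried Ezh2 fl/fl, Runx1 fl/fl and Rag1Cre+, and the control cells carried both floxed alleles without Cre. Rag1Cre is active from early lymphoid progenitors on, and the share of cells in which both genes were recombined is not given in the sources used here. Nothing in the labels says whether the 4 libraries of a group came from separate animals, so every p-value below measures only the spread between these libraries.

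Cells repair DNA by several routes that share a few components. Breaks are sensed by the kinases Atm and Atr, which activate the checkpoint kinases Chek2 and Chek1 and so hold the cell cycle. Homologous recombination copies the lost stretch from the sister chromatid with the help of Brca1 and Brca2. The Fanconi anaemia proteins unhook crosslinked strands, nucleotide excision removes bulky lesions, and mismatch repair corrects copying errors. Many of these genes are transcribed mainly in dividing cells, and developing T cells both divide and cut their own antigen receptor genes.

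The whole reads recovered from the deposited RPKM values (reads per unit of transcript length and sequencing depth) numbered 13623436 to 33985972 per library. Control 1 stood furthest from the rest, with a mean correlation of 0.786 over log2 values, and dKO_Flt3ITD 1 the highest sum of RPKM, 1.07e+06 against 515638 to 829421 in the others. Ezh2 stood at 16.4 ± 5.59 RPKM in dKO_Flt3ITD, 22.6 ± 5.87 in dKO and 39.8 ± 5.83 in control (SD, n = 4 each). Runx1 stood at 47.5 ± 11.8 RPKM in dKO_Flt3ITD, 46.4 ± 11.1 in dKO and 21.2 ± 4.57 in control, higher in the libraries labelled as deleted. Values over whole genes include reads outside the floxed parts, so they do not check the deletions, and the directions below rest on the labels. Of 6 progenitor markers (Kit, Cd44, Flt3, Notch1, Ptprc and Il7r), the first 5 were present in every library and Il7r was near 0 in dKO_Flt3ITD 3 and control 4, at 0.0883 and 0.227 RPKM. All 6 had a negative log2 fold change in dKO_Flt3ITD against control, with a median of -0.85, 3 at an unadjusted limma p under 0.05 and 0 called by limma or voom. Their summed RPKM was 195 to 278 in dKO_Flt3ITD, 241 to 340.4 in dKO and 291 to 489 in control. Of 6 genes of later thymocytes 5 were in the table, summing to 6.11 to 59.9 RPKM in dKO_Flt3ITD, 57.96 to 141 in dKO and 15.1 to 38.95 in control, so that every dKO library lay above every control library. Most of the dKO sum was Rag2, a recombinase of antigen receptor genes, at 27.8 ± 21.4 RPKM in dKO_Flt3ITD, 84.2 ± 34.8 in dKO and 12.4 ± 7.496 in control, while Cd8a and Cd8b1 stayed under 3 RPKM. Of the 3 tested, 2 were higher in dKO against control at an unadjusted limma p under 0.05. The median log2 fold change of the 3 was 1.39, and 0 were called by limma or voom. Ptcra went the other way with a log2 fold change of -0.98, at 5.87 ± 1.82 RPKM in dKO and 14.5 ± 9.28 in control. The part of these markers in the results below was not tested. In these bulk libraries, fewer cells of a type and less RNA per cell cannot be told apart.

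On the deposited RPKM scale, the summed level of the repair genes was lowest in the dKO_Flt3ITD progenitors. Their values summed to 877, 716, 809 and 831 in the 4 dKO_Flt3ITD libraries, 1127, 1008, 1016 and 1004 in dKO, and 892, 956, 999 and 1094 in control. Every dKO_Flt3ITD library was thus below every dKO and control library, by a narrow margin between dKO_Flt3ITD 1 and control 1, and it was also so without the 3 libraries numbered 1. The separation from both other groups held on this scale only. As a share of the library's total RPKM, a scaling added after the data were seen, the sum was 0.0818% to 0.144% in dKO_Flt3ITD, 0.136% to 0.182% in dKO and 0.151% to 0.183% in control, so dKO_Flt3ITD overlapped dKO and not control. With each sum divided by the RPKM of its library's median gene, it was 116 to 164.1 in dKO_Flt3ITD, 164.2 to 199.8 in dKO and 141 to 179 in control, so dKO_Flt3ITD overlapped control and was just under dKO. A large part of that sum came from 5 genes, Rpa1, Rpa2, Rpa3, Parp1 and Parp2, which together gave 299 to 506 RPKM in dKO_Flt3ITD, 414 to 537 in dKO and 386 to 465 in control. Giving each gene equal weight, the median log2(RPKM + 1) over the 55 genes was 2.17 to 3.199 in dKO_Flt3ITD libraries, 3.06 to 3.53 in dKO and 3.004 to 3.27 in control, and these ranges overlapped. The group with the lowest mean was dKO_Flt3ITD for 30 of the 55 genes (54.5%), against 34.7% of all tested genes.

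**Figure D1:**
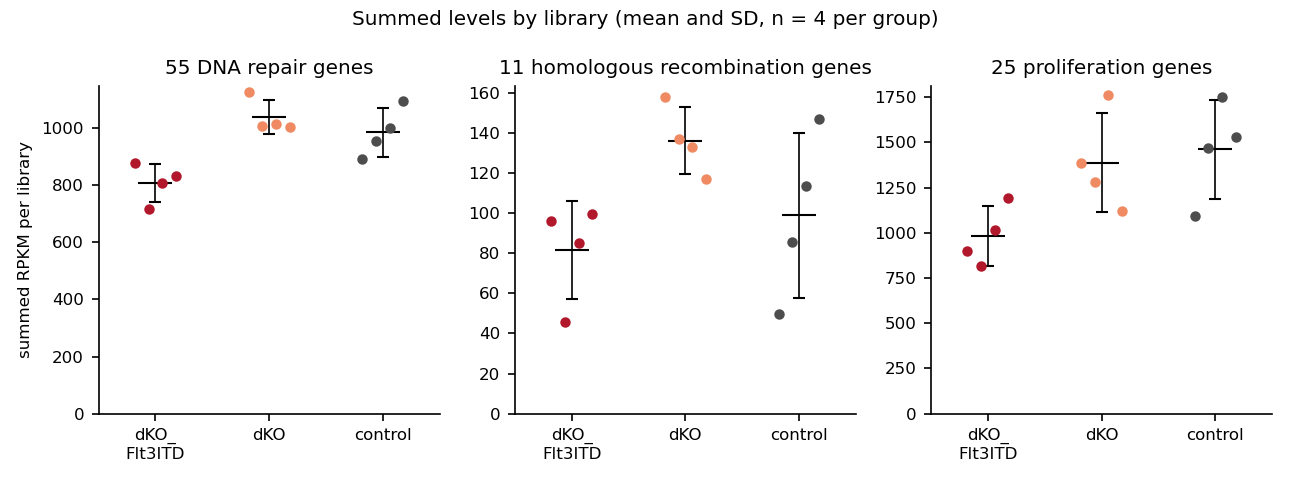
Summed RPKM per library (vertical axis, linear, from 0) of the 55 DNA repair genes, of the 11 homologous recombination genes and of 25 proliferation genes, in dKO_Flt3ITD, dKO and control. Points are libraries and the bars give mean and SD of 4. On this unscaled RPKM the dKO_Flt3ITD libraries reach 877 for the 55 genes, under the lowest control library at 892. The sums of the proliferation genes overlap between groups, while 21 of the 24 tested had a negative log2 fold change in dKO_Flt3ITD against control.

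Over a list of 25 proliferation genes with roles in DNA replication and mitosis, among them Mki67, Top2a and the Mcm genes, summed RPKM was 815 to 1194 in dKO_Flt3ITD, 1122 to 1764 in dKO and 1093 to 1751 in control, and these ranges overlapped. Of the 24 tested, 21 had a negative log2 fold change in dKO_Flt3ITD against control and 22 in dKO_Flt3ITD against dKO, and 0 were called by limma or voom in either comparison. An unadjusted limma p under 0.05 was found for 8 against control and 5 against dKO, all lower, beside 5.79% and 4.01% of all genes lower. The median log2 fold change of the 24 was -0.67 against control and -0.52 against dKO, beside -0.23 and -0.31 for the repair genes. Without overlap of libraries, 7 of the 24 were lower than control and 2 lower than dKO, beside 3.51% and 2.2% of all genes. The part of the proliferation genes in the lower sum of repair genes was not tested.

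Most members were detected throughout, at very different levels per length. Of the 55 genes, 47 were above 0 in all 12 libraries and 28 reached 1 RPKM in all 12. Averaged over the 3 groups, 25 genes had 10 RPKM or more and 8 had under 2 RPKM. The highest were Rpa3 at 169 RPKM, Parp2 at 90.8 and Rpa2 at 84.8, and the lowest was Fanca, a subunit of the Fanconi core complex, at 0.655 RPKM. Libraries of the same group differed much: the median coefficient of variation over the 55 genes was 57.9% in dKO_Flt3ITD, 45.6% in dKO and 46.1% in control, against 51.8%, 49.2% and 51.1% over all tested genes. Of all member values 12 were 0, 6 in dKO_Flt3ITD and 6 in dKO.

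Across genotypes, 1 of the 55 genes passed the test, Chek1, and it fell in dKO_Flt3ITD. The test was limma on log2(RPKM + 1), fitted to all tested genes and 12 libraries, with Benjamini-Hochberg adjustment at 0.05. In dKO_Flt3ITD against control, 1 of 55 (1.82%) was called, against 1.5% of all genes either way and 0.505% called down. In dKO against control 0 of 55 were called, against 1.02% of all genes, and in dKO_Flt3ITD against dKO 0 of 55, against 0.0% (0 of 10690 genes). Voom on the recovered reads called 0 members in each comparison. At this spread the unadjusted 95% interval of a member's log2 fold change reached 0.57 to 1.86 either side of the estimate, with a median of 1.11. Changes of about 1 log2 unit were thus mostly not detectable. A call, made on the adjusted p, took more than that. In dKO_Flt3ITD against dKO, Mre11a at -2.14 and Rad51c at -1.87 were not called, with limma adjusted p of 0.334 and 0.529 after Benjamini-Hochberg adjustment.

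Without adjustment, the members past a p of 0.05 were all lower in both comparisons of dKO_Flt3ITD. In dKO_Flt3ITD against control 12 of 55 genes (21.8%) had an unadjusted p under 0.05 and all 12 were lower, against 5.79% of all genes lower at that threshold. Among them were Brca1, Chek1, Ercc5, Ercc6l, Fancg, Fanci, Msh5, Msh6, Rad17, Rad51c and Rad54b. In dKO_Flt3ITD against dKO 7 genes (12.7%) had such a p, all lower, against 4.01% of all genes, among them Brca1, Brca2, Chek1, Ercc6l, Mre11a and Rad51c. In dKO against control 2 genes had such a p, against 9.18% of all genes either way, with Fancf higher and Fancg lower. The comparisons share libraries, so genes named in more than one are not independent evidence.

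The median log2 fold change of the 55 genes was -0.23 in dKO_Flt3ITD against control, with 37 of 55 negative, beside 0.0021 and 49.9% negative over all tested genes. In dKO_Flt3ITD against dKO it was -0.31, with 40 of 55 negative, beside 0.0042 and 49.7%. In dKO against control it was 0.014, with 27 of 55 negative, beside 0.0096 and 49.3%. The 4 libraries of each group did not overlap for 6 genes lower in dKO_Flt3ITD than control (10.9%, against 3.51% of all genes), namely Chek1, Ercc5, Fanci, Msh6, Rad17 and Rad9a, and for Fancb, higher (1.82%, against 4.16%). Between dKO_Flt3ITD and dKO they did not overlap for 5 genes, among them Atr, Brca2, Chek1 and Mre11a, all lower in dKO_Flt3ITD (9.09%, against 2.2%). Between dKO and control they did not overlap for Brca2, Mre11a and Rad54l2, higher in dKO (5.45%, against 3.93%), and Fancg, lower (1.82%, against 2.38%).

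**Figure D2:**
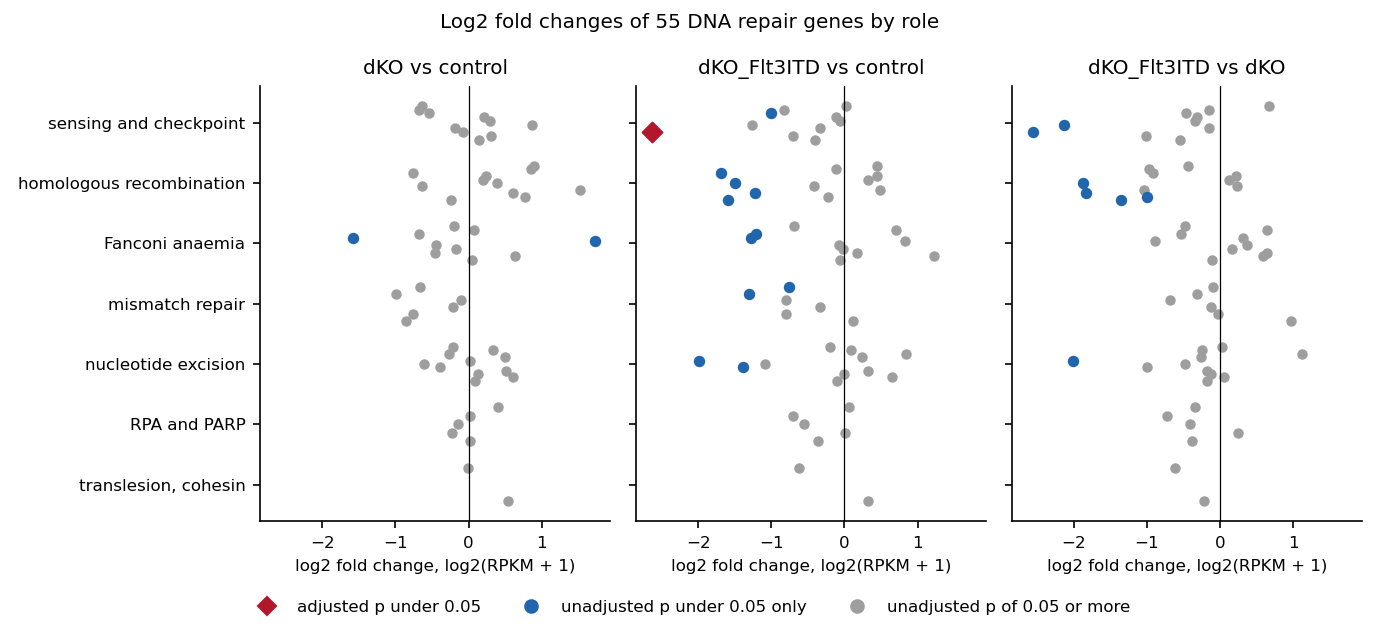
Log2 fold change on the log2(RPKM + 1) scale (horizontal axis) of the 55 DNA repair genes, 1 point per gene in rows by role, for dKO against control, dKO_Flt3ITD against control and dKO_Flt3ITD against dKO. Red diamonds have a limma adjusted p under 0.05, blue points only an unadjusted p under 0.05; the single diamond is Chek1 at -2.63, and all blue points lie left of 0 in both comparisons of dKO_Flt3ITD.

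Damage sensing and checkpoint genes numbered 10, and 9 of them had a negative log2 fold change in dKO_Flt3ITD against each other group. Chek1 (chromosome 9, 36708482 to 36727065, minus strand, GRCm38) encodes the kinase that Atr activates to slow replication and delay mitosis. It had 10.1, 0.379, 13.9 and 2.01 RPKM in dKO_Flt3ITD, 35.3, 31.5, 26.03 and 24.8 RPKM in dKO, and 60.7, 19.6, 30.8 and 24.3 RPKM in control. All 4 dKO_Flt3ITD libraries lay below all dKO and control libraries, with dKO_Flt3ITD 2 lowest and control 1 highest. Chek1 averaged 6.61 ± 6.48 RPKM in dKO_Flt3ITD, 29.4 ± 4.92 in dKO and 33.8 ± 18.5 in control (SD, n = 4 each), a mean in control 5.12 times that in dKO_Flt3ITD. It fell in dKO_Flt3ITD against control with a log2 fold change of -2.63 ± 0.62 (SE) and an adjusted p = 0.0431 in limma with Benjamini-Hochberg adjustment. Against dKO the log2 fold change was -2.56 ± 0.62 with an adjusted p = 0.261 by the same limma and Benjamini-Hochberg test, which did not pass, and dKO against control gave -0.078.

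The Chek1 call stood close to the threshold. It was lost without control 1, control 2, control 3, control 4, dKO 2, dKO 3, dKO 4, dKO_Flt3ITD 2 or dKO_Flt3ITD 4, with limma and Benjamini-Hochberg adjusted p of 0.0550 to 0.121, and with voom on the recovered reads, adjusted p = 0.120. Over all 24 alternatives the log2 fold change stayed between -3.15 and -2.003, and 8 kept the call. Between 24 and 5590 reads stood behind the Chek1 value of each library. Of 8 macrophage markers 6 were in the table, and 2 of them, Emr1 and Spic, rose in dKO_Flt3ITD against control by limma and 0 by voom. Of the 6, 5 had a positive log2 fold change there and 1 a negative one, at -1.57, with a median of 0.94. The summed RPKM of the 6 was 46.5 to 119 in dKO_Flt3ITD, 33.5 to 106 in dKO and 11.1 to 57.1 in control, and none of the 6 was at 0 in all 4 libraries of a group. Their part in the Chek1 result was not tested.

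The Chek1 promoter is printed because Chek1 was the member called, and the promoters of Brca1 and Brca2 beside it for the comparison of motifs. Each is the 250 bases before the RefSeq start site, 5′ to 3′ on the gene's own strand, from RefSeq's table on GRCm38.p6, with motif matches in capitals. The Chek1 sequence is chr9:36726659-36726908, minus strand, where GENCODE also places the first exon of a non-coding Chek1 transcript. The Brca1 sequence is chr11:101551956-101552205, minus strand, and the Brca2 sequence chr5:150522371-150522620, plus strand.
Chek1: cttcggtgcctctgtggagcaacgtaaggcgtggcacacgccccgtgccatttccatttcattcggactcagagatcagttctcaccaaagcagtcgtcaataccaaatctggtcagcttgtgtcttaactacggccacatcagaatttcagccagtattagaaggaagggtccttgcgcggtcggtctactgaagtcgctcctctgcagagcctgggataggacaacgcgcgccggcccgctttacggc
Brca1: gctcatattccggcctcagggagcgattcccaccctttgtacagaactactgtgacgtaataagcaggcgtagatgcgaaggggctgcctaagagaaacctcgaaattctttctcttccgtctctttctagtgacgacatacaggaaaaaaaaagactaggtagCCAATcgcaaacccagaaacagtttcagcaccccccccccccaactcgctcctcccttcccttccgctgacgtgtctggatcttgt
Brca2: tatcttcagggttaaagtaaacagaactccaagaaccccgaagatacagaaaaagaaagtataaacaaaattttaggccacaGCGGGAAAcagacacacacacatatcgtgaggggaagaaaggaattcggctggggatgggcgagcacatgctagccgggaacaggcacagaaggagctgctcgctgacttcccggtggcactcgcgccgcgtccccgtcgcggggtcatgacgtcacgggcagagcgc
The capitals mark a CCAAT box in Brca1, whose first base is at -86 from the start site, and the E2F motif in Brca2, read on the opposite strand, at -168. Chek1 held none of the motifs searched.

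Promoters of repair genes held the E2F motif of cell cycle genes in a larger share than those of all tested genes. Searched on both strands over 250 bases before to 50 after the start were E2F (TTTCCCGC, TTTGGCGC, TTTCGCGC or TTTGCCGC), the CCAAT box (CCAAT) and the CHR element (TTTGAA or TTCGAA). RefSeq's table held promoters for 42 of the 55 genes. E2F letters were found for 7 of the 42 (16.7%), against 5.02% of the tested genes with a promoter. Those 7 were Brca2, Chek2, Fancg, Msh3, Msh5, Msh6 and Rad51c. Of the 12 genes lower in dKO_Flt3ITD than control at an unadjusted limma p under 0.05, Fancg, Msh5, Msh6 and Rad51c held E2F letters. Brca1, Chek1, Ercc5, Fanci and Rad17, also among the 12, had promoters without them, and the rest of the 12 had no promoter in RefSeq's table. A link between the motif and the lower values was not tested. The CCAAT box was found for 59.5%, against 43.7%, and the CHR element for 7.14%, against 16.7%. These matches describe letters and do not show binding.

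Mre11a (chromosome 9, 14784654 to 14837123, plus strand) encodes the nuclease that trims broken ends, in a complex with Nbn. It had 0.0733, 5.32, 11.3 and 4.40 RPKM in dKO_Flt3ITD, 21.5, 17.3, 14.8 and 25.02 RPKM in dKO, and 7.02, 9.29, 14.7 and 10.6 RPKM in control. Every dKO_Flt3ITD library was below every dKO library, and dKO_Flt3ITD 1 was near 0. Every dKO library was above every control library, by a narrow margin between dKO 3 and control 3, at 14.8 and 14.7 RPKM. Mre11a averaged 5.27 ± 4.61 RPKM in dKO_Flt3ITD, 19.6 ± 4.52 in dKO and 10.4 ± 3.202 in control (SD, n = 4 each). In dKO_Flt3ITD against dKO its log2 fold change was -2.14 ± 0.60 (SE), with an adjusted p = 0.334 in limma with Benjamini-Hochberg adjustment, not a call. Exons of Mre11a share 154 bases with Ankrd49 on the opposite strand, and whether the counting used strand is not given in the sources used here. Nbn, its partner, averaged 25.8 ± 17.3, 29.5 ± 8.16 and 24.5 ± 8.25 RPKM in dKO_Flt3ITD, dKO and control, with overlapping libraries.

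Atr, the kinase that answers to single-stranded DNA, had 1.97, 6.56, 4.41 and 6.501 RPKM in dKO_Flt3ITD, 7.65, 11.3, 9.08 and 13.01 RPKM in dKO, and 14.1, 5.32, 5.30 and 9.64 RPKM in control. All dKO_Flt3ITD libraries lay below all dKO libraries, while control overlapped both. Atm, the kinase that answers to double-strand breaks, had 1.22, 7.36, 3.63 and 3.87 RPKM in dKO_Flt3ITD, 3.90, 10.9, 5.27 and 4.28 RPKM in dKO, and 8.63, 3.93, 3.13 and 5.55 RPKM in control. Its groups overlapped, and so did those of Chek2, the kinase Atm activates, with 11.4, 24.1, 14.2 and 19.3 RPKM in dKO_Flt3ITD, 13.9, 18.9, 17.6 and 25.2 RPKM in dKO, and 9.35, 33.1, 20.9 and 30.9 RPKM in control. Rad9a, Rad1 and Hus1 form a clamp around DNA that Rad17 loads. Rad9a had 15.3, 14.8, 17.5 and 5.82 RPKM in dKO_Flt3ITD, 8.63, 15.5, 21.4 and 12.7 RPKM in dKO, and 21.9, 28.2, 21.4 and 20.6 RPKM in control. Every dKO_Flt3ITD library of Rad9a was below every control library, with dKO_Flt3ITD 4 the lowest, and the log2 fold change was -0.83 against control and -0.15 against dKO. Exons of Rad9a overlap those of Ppp1ca. Rad17 averaged 7.71 ± 3.91 RPKM in dKO_Flt3ITD, 10.3 ± 3.14 in dKO and 14.9 ± 1.91 in control, also without overlap between dKO_Flt3ITD and control. The paralog Rad9b was low, with 0.184, 4.82, 2.24 and 2.09 RPKM in dKO_Flt3ITD, 0, 0.330, 4.03 and 0.640 RPKM in dKO, and 0.579, 2.49, 5.38 and 0.848 RPKM in control, and its groups overlapped. Rad1 averaged 26.7 ± 3.97, 35.0 ± 12.7 and 33.2 ± 19.9 RPKM in dKO_Flt3ITD, dKO and control, and its log2 fold changes lay between -0.31 and 0.21.

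**Figure D3:**
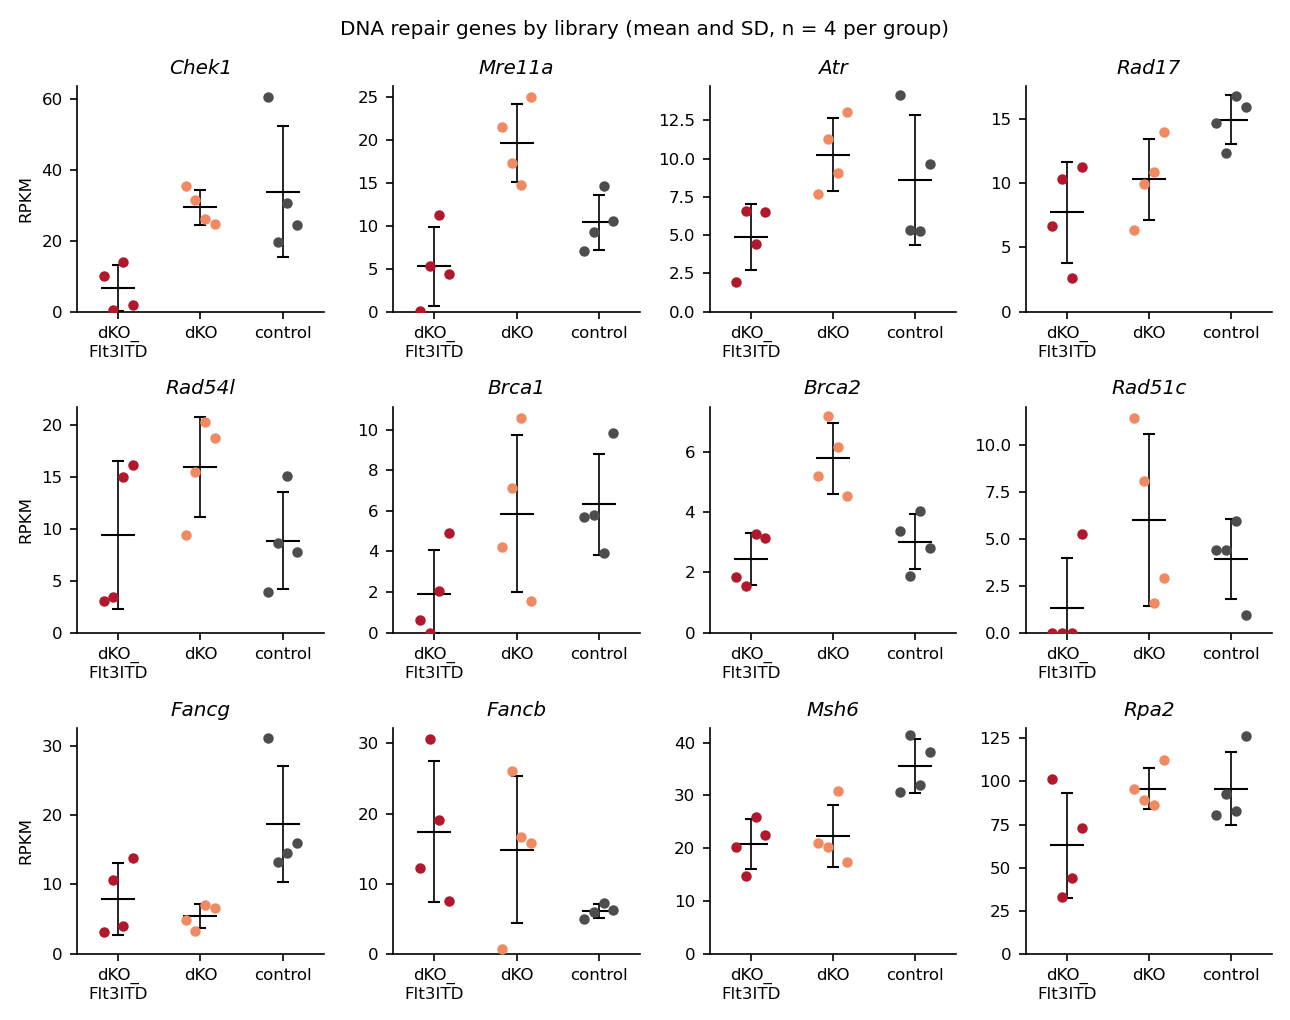
RPKM (vertical axes, linear, from 0, scaled per gene) of 12 DNA repair genes in the 4 libraries each of dKO_Flt3ITD, dKO and control. Points are libraries and bars give mean and SD, cut at 0; Chek1 lies between 0.379 and 13.9 RPKM in dKO_Flt3ITD, under every dKO and control library.

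The 11 homologous recombination genes had a median log2 fold change of -0.97 in dKO_Flt3ITD against dKO, with 8 of 11 negative. Their summed RPKM was 45.8 to 99.5 in dKO_Flt3ITD, 117 to 158 in dKO and 49.8 to 147 in control, so all dKO_Flt3ITD libraries were below all dKO libraries and within the control range but for dKO_Flt3ITD 2. The separation from dKO also held with the sums divided by the library's total or by its median gene. Against control the median was -0.23 with 7 of 11 negative in dKO_Flt3ITD, and 0.38 with 3 of 11 negative in dKO. No single gene of this group was called.

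Brca1 (chromosome 11, 101488764 to 101551955, minus strand) directs broken ends towards recombination. It had 0.624, 0, 2.05 and 4.89 RPKM in dKO_Flt3ITD, 4.22, 7.10, 10.6 and 1.56 RPKM in dKO, and 5.68, 5.78, 3.93 and 9.84 RPKM in control. In dKO_Flt3ITD 2, where Brca1 was at 0, a count of 3 reads would have stood at 0.0242 RPKM, and dKO_Flt3ITD 4 overlapped both other groups. Brca1 had a log2 fold change of -1.59 ± 0.61 against control and -1.36 ± 0.61 against dKO (SE), with limma adjusted p of 0.254 and 0.632 after Benjamini-Hochberg adjustment. Brca2 (chromosome 5, 150522630 to 150570329, plus strand), which acts in the strand exchange step, had 1.85, 1.56, 3.26 and 3.14 RPKM in dKO_Flt3ITD, 5.22, 7.22, 6.19 and 4.54 RPKM in dKO, and 3.37, 1.88, 4.03 and 2.82 RPKM in control. The dKO libraries were above all libraries of both other groups, and dKO_Flt3ITD and control overlapped. Its log2 fold change was -0.99 in dKO_Flt3ITD against dKO and 0.77 in dKO against control.

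The paralogs Rad51b, Rad51c and Rad51d act in recombination and did not share a pattern. Rad51c had 0, 0, 0 and 5.27 RPKM in dKO_Flt3ITD, 11.4, 8.04, 1.56 and 2.93 RPKM in dKO, and 4.42, 4.38, 5.94 and 0.938 RPKM in control. It was at 0 in 3 dKO_Flt3ITD libraries, where 3 reads would have stood at 0.0373 to 0.0545 RPKM, while dKO_Flt3ITD 4 was within the range of control. Rad51c had a log2 fold change of -1.87 against dKO and -1.49 against control, both uncalled. Rad51b averaged 4.47 ± 2.53, 5.26 ± 5.64 and 6.16 ± 2.60 RPKM in dKO_Flt3ITD, dKO and control, and Rad51d 5.53 ± 0.796, 5.14 ± 1.71 and 4.55 ± 2.13, with overlap throughout. Rad51ap1, an accessory factor of recombination, had 40.0, 3.16, 13.7 and 25.3 RPKM in dKO_Flt3ITD, 42.4, 15.6, 41.8 and 36.9 RPKM in dKO, and 0.241, 17.3, 15.01 and 46.6 RPKM in control. Control 1 was near 0 for Rad51ap1 and the groups overlapped, and its SE of 0.88 was the widest of all members.

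Rad52, which anneals strands, had 35.7, 15.03, 28.03 and 20.9 RPKM in dKO_Flt3ITD, 22.3, 17.8, 17.2 and 24.5 RPKM in dKO, and 15.3, 13.6, 22.7 and 17.9 RPKM in control. Its libraries overlapped in all comparisons, and its largest log2 fold change was 0.45, in dKO_Flt3ITD against control. Rad54l, a motor protein of recombination, had 3.02, 3.44, 15.03 and 16.1 RPKM in dKO_Flt3ITD, 9.44, 15.5, 20.3 and 18.8 RPKM in dKO, and 3.96, 8.66, 15.2 and 7.76 RPKM in control. Its log2 fold change was 0.86 in dKO against control and -0.97 in dKO_Flt3ITD against dKO. Its libraries overlapped, and its exons share 1184 bases with Lrrc41 on the opposite strand. Its relative Rad54b averaged 0.700 ± 0.845, 2.98 ± 3.498 and 6.63 ± 8.95 RPKM in dKO_Flt3ITD, dKO and control, with a control 4 value well above the 1.64 to 3.13 RPKM of the other controls. Exons of Rad54b share 2068 bases with Fsbp on the same strand, so its reads cannot be assigned with certainty. Rad54l2, a related helicase, averaged 1.13 ± 1.12, 1.66 ± 0.623 and 0.420 ± 0.256 RPKM, with every dKO library above every control library.

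**Figure D4:**
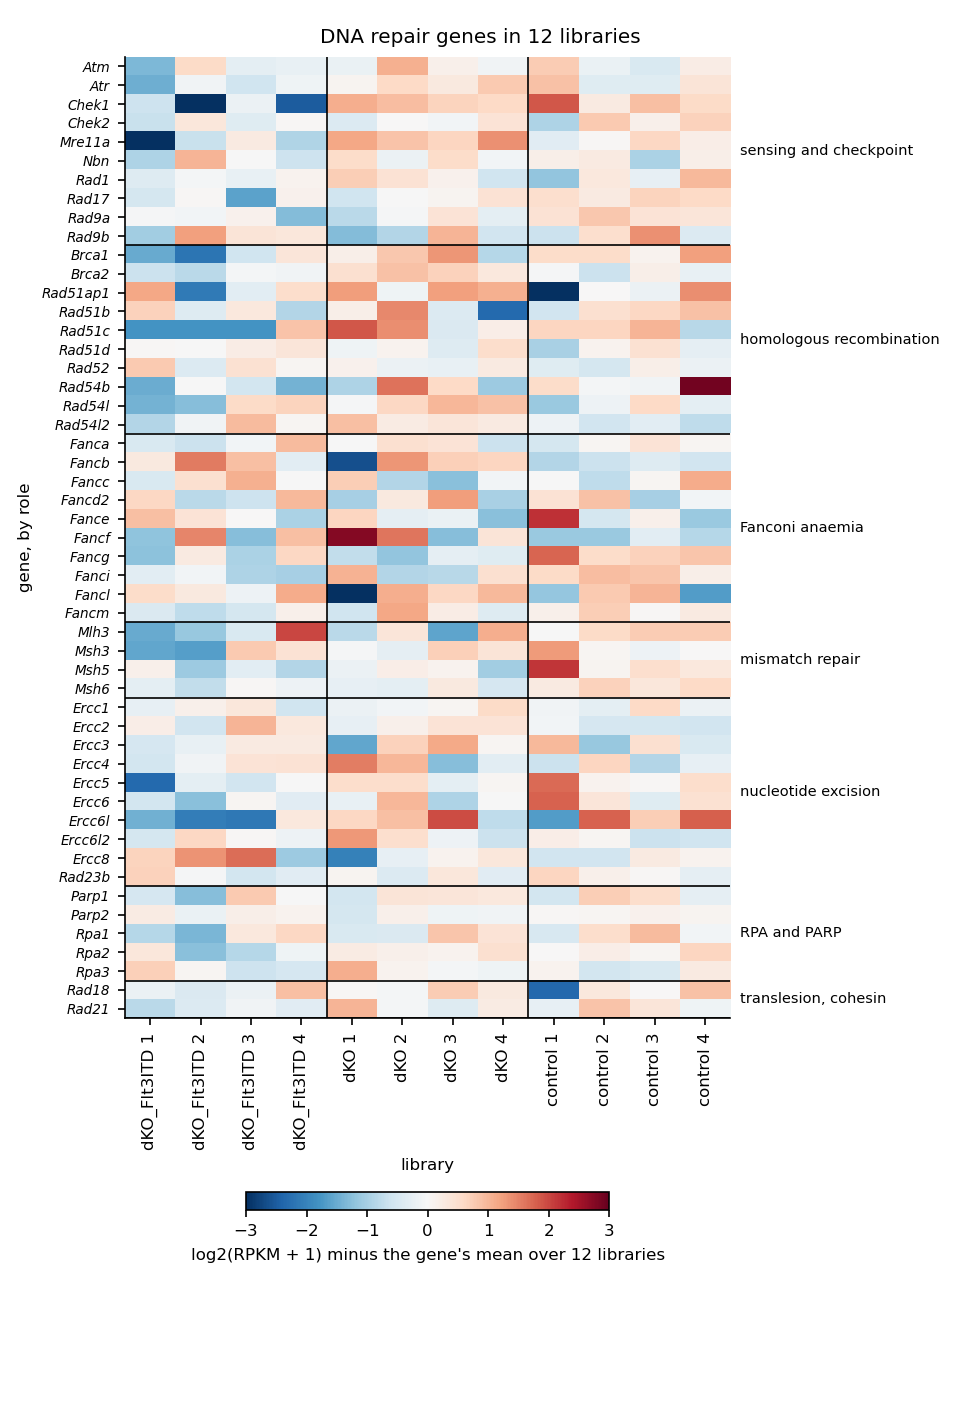
Log2(RPKM + 1) of 51 of the DNA repair genes, minus each gene's mean over 12 libraries, in rows by role and columns by library, dKO_Flt3ITD, dKO and then control. Red is above and blue below the gene's mean, with colours ending at 3 either side (the lowest value is -3.87); Chek1 is blue in all 4 dKO_Flt3ITD columns and red in all others.

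Fanconi anaemia genes, 10 in number, did not move together. In dKO_Flt3ITD against control 6 of 10 were negative with a median of -0.034, in dKO against control 6 of 10 with a median of -0.19, and in dKO_Flt3ITD against dKO 4 of 10 with a median of 0.24. Fancg (chromosome 4, 43002343 to 43010506, minus strand), a core complex subunit, had 3.14, 10.6, 4.02 and 13.8 RPKM in dKO_Flt3ITD, 4.79, 3.25, 7.04 and 6.52 RPKM in dKO, and 31.1, 13.2, 14.6 and 16.01 RPKM in control. All dKO libraries were below all controls, control 1 stood above the other controls, and dKO_Flt3ITD 4 overlapped control. Its log2 fold change was -1.59 ± 0.50 (SE) in dKO against control, with a limma adjusted p = 0.207 after Benjamini-Hochberg adjustment, the lowest of any member in that comparison. In dKO_Flt3ITD against control it was -1.27.

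Fancb, another core subunit (chromosome X, 164980592 to 164997272, plus strand), had 12.2, 30.7, 19.04 and 7.58 RPKM in dKO_Flt3ITD, 0.729, 26.05, 16.6 and 15.8 RPKM in dKO, and 4.88, 5.92, 7.23 and 6.23 RPKM in control. All dKO_Flt3ITD libraries were above all controls, the lowest by a small margin, and dKO 1 was the lowest of all 12. The log2 fold change of 1.22 ± 0.69 (SE) in dKO_Flt3ITD against control was not called. Fancf, an adaptor of the core complex, had 0.0434, 5.68, 0 and 3.53 RPKM in dKO_Flt3ITD, 15.1, 6.37, 0 and 2.16 RPKM in dKO, and 0.109, 0.119, 0.924 and 0.328 RPKM in control. It ranged from 0 to above 15 RPKM within dKO and overlapped between groups, and its exons overlap those of Gas2. Fancc, also of the core, had 2.24, 5.24, 8.27 and 3.41 RPKM in dKO_Flt3ITD, 6.39, 1.41, 0.875 and 3.19 RPKM in dKO, and 3.40, 1.61, 3.64 and 8.53 RPKM in control. No order of the groups was visible for Fancc.

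Fancd2 and Fanci form the pair that the core complex marks with ubiquitin. Fancd2 had 2.10, 0.157, 0.313 and 2.97 RPKM in dKO_Flt3ITD, 0, 1.46, 3.76 and 0.0225 RPKM in dKO, and 1.71, 2.72, 0.00839 and 0.913 RPKM in control. It was under 4 RPKM in every library and overlapped throughout. Fanci averaged 0.527 ± 0.474 RPKM in dKO_Flt3ITD, 1.52 ± 1.62 in dKO and 2.48 ± 0.763 in control, with every dKO_Flt3ITD library below every control library and a log2 fold change of -1.21, not called. Exons of Fanci overlap those of Polg. Fancl, the ubiquitin ligase, ranged from 0.101 to 24.7 RPKM over the 12 libraries, and Fanca, Fance and Fancm averaged under 4 RPKM in every group.

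The 6 mismatch repair genes were all negative in dKO against control, with a median log2 fold change of -0.72, and 5 of 6 were negative in dKO_Flt3ITD against control, with a median of -0.78. None was called. Msh6, which recognises single mismatches, had 20.1, 14.6, 25.9 and 22.5 RPKM in dKO_Flt3ITD, 20.997, 20.3, 30.7 and 17.3 RPKM in dKO, and 30.6, 41.4, 32.0 and 38.2 RPKM in control. Every dKO_Flt3ITD library was below every control, and dKO overlapped control through dKO 3 alone. Its log2 fold change was -0.76 ± 0.34 in dKO_Flt3ITD and -0.67 ± 0.34 in dKO against control (SE), with limma adjusted p of 0.336 and 0.612 after Benjamini-Hochberg adjustment.

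Msh5, a meiotic member of the family, had 1.46, 0.0371, 0.784 and 0.199 RPKM in dKO_Flt3ITD, 0.972, 1.57, 1.41 and 0.0742 RPKM in dKO, and 8.89, 1.37, 2.13 and 1.78 RPKM in control. It was low in all libraries but control 1. Msh3 averaged 6.46 ± 5.72, 8.44 ± 2.87 and 9.73 ± 5.75 RPKM and Mlh3 3.21 ± 5.33, 2.27 ± 2.44 and 3.47 ± 0.996 RPKM in dKO_Flt3ITD, dKO and control.

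The 11 genes of nucleotide excision and transcription-coupled repair showed little common change. Their median log2 fold change was -0.0035 in dKO_Flt3ITD against control, 0.090 in dKO against control and -0.19 in dKO_Flt3ITD against dKO. Ercc1, part of a nuclease that cuts the strand beside a lesion, had 19.9, 26.7, 30.7 and 15.4 RPKM in dKO_Flt3ITD, 21.1, 22.5, 25.2 and 36.1 RPKM in dKO, and 22.1, 19.5, 36.6 and 20.98 RPKM in control. All its groups overlapped, and control 3 and dKO 4 were the highest. Ercc8, which recruits repair to stalled transcription, had 5.51, 9.47, 12.01 and 0.919 RPKM in dKO_Flt3ITD, 0, 2.43, 3.36 and 4.15 RPKM in dKO, and 1.75, 1.76, 3.94 and 3.40 RPKM in control. Apart from dKO_Flt3ITD 4, which was low, the dKO_Flt3ITD libraries were above all dKO and control libraries, with a log2 fold change of 0.84 ± 0.65 (SE) against control.

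Ercc6l shares sequence with this family and acts on chromosome bridges in mitosis. It had 0.848, 0.179, 0.135 and 5.19 RPKM in dKO_Flt3ITD, 6.72, 8.30, 18.3 and 1.93 RPKM in dKO, and 0.571, 16.1, 7.32 and 16.2 RPKM in control. The 3 dKO_Flt3ITD libraries numbered 1 to 3 were under 1 RPKM, dKO_Flt3ITD 4 was not, and control 1 was low too. The Ercc6l log2 fold change was -1.99 ± 0.79 against control and -2.01 ± 0.79 against dKO (SE), uncalled. Ercc5, the other nuclease of the pathway, averaged 2.90 ± 1.98 RPKM in dKO_Flt3ITD, 5.87 ± 1.78 in dKO and 8.88 ± 6.17 in control. Every dKO_Flt3ITD library of Ercc5 was below every control, by a narrow margin between dKO_Flt3ITD 4 at 4.79 and control 3 at 4.91 RPKM. The remaining 7 genes, among them Ercc2, Ercc3, Ercc4, Ercc6, Ercc6l2 and Rad23b, overlapped between groups in every comparison.

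Genes of the proteins that coat and mark single strands included the highest of the members. Rpa2, a subunit of replication protein A, had 101, 33.1, 43.9 and 73.2 RPKM in dKO_Flt3ITD, 95.6, 89.0, 86.2 and 112 RPKM in dKO, and 80.8, 93.0, 83.1 and 126 RPKM in control. It was low in 3 dKO_Flt3ITD libraries, while dKO_Flt3ITD 1 overlapped both other groups, and its log2 fold change was -0.71 ± 0.35 against control and -0.72 ± 0.35 against dKO (SE), uncalled. Parp1, which marks breaks with ADP-ribose chains, had 22.8, 12.9, 57.3 and 32.4 RPKM in dKO_Flt3ITD, 22.1, 43.1, 42.1 and 41.2 RPKM in dKO, and 22.0, 55.4, 47.7 and 27.1 RPKM in control. Its groups overlapped, and dKO 1 stood below the other dKO libraries. Parp2 was the steadiest member, with an SE of 0.27 and log2 fold changes of 0.005 in dKO_Flt3ITD and -0.23 in dKO against control. Rpa1 averaged 26.1 ± 16.02, 32.2 ± 14.7 and 35.6 ± 15.8 RPKM and Rpa3 159.5 ± 72.8, 201 ± 91.4 and 146 ± 40.6 RPKM in dKO_Flt3ITD, dKO and control. Rad18, a ubiquitin ligase for lesion bypass, had log2 fold changes of 0.32 and 0.55 in dKO_Flt3ITD and dKO against control, and Rad21, the cohesin subunit, -0.63 and -0.0056.

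Of 74 further repair genes outside the symbol rule, 73 were in the table and 72 were tested. Of the 72, 1 gene, Xrcc6, was called, lower in both mutant groups against control. Over all genes, 1.5% were called in dKO_Flt3ITD against control and 1.02% in dKO against control. Xrcc6 (chromosome 15, 81987835 to 82040085, plus strand) encodes Ku70, which binds broken ends for joining without a template. It had 38.0, 21.7, 36.7 and 76.6 RPKM in dKO_Flt3ITD, 27.0, 62.4, 68.0 and 66.1 RPKM in dKO, and 132, 330.2, 384 and 233 RPKM in control. Every library of both mutant groups was below every control, and the mutant groups overlapped. It fell in dKO_Flt3ITD against control with a log2 fold change of -2.65 ± 0.43 (SE), adjusted p = 0.00319 in limma with Benjamini-Hochberg adjustment, a call kept in all 24 alternatives. It fell in dKO against control with -2.23 ± 0.43 (SE), adjusted p = 0.0160 in limma with Benjamini-Hochberg adjustment, a call lost with voom, adjusted p = 0.0525, and in limma without control 2, control 3 or dKO 1, adjusted p of 0.0568, 0.0618 and 0.0550. Exons of Xrcc6 share 344 bases with Desi1 on the opposite strand.

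The rest of that list showed no call. The median log2 fold change of its 72 genes was -0.34 in dKO_Flt3ITD against control with 50 negative, -0.054 in dKO against control with 39 negative, and -0.098 in dKO_Flt3ITD against dKO with 37 negative. Mgmt, which removes alkyl groups from guanine, averaged 16.01 ± 7.66 RPKM in dKO_Flt3ITD, 3.02 ± 4.85 in dKO and 15.4 ± 3.06 in control. Its dKO values were 0, 0, 10.2 and 1.90 RPKM, all below control, with a log2 fold change of -2.76 ± 0.69 (SE) and a limma adjusted p = 0.0680 after Benjamini-Hochberg adjustment. Mus81, a nuclease for joined strands, averaged 5.95 ± 2.02, 1.29 ± 1.91 and 3.53 ± 1.56 RPKM, and Tdp1, which frees trapped topoisomerase, 7.90 ± 11.03, 17.3 ± 7.68 and 17.98 ± 5.85 RPKM, in dKO_Flt3ITD, dKO and control. Of 15 target genes of the damage-activated factor p53, 11 were tested, none was called by limma or voom in any comparison, and their median log2 fold change was 0.086 in dKO_Flt3ITD against control and -0.061 in dKO against control. An unadjusted limma p under 0.05 was found for 2 of the 11 in each of these comparisons, 1 higher and 1 lower. In dKO_Flt3ITD against dKO it was found for 1, lower. Over all 10690 genes, 1435, 981 and 824 had such a p either way in these 3 comparisons, in that order. The higher p53 target in both comparisons with control was Cdkn1a, an inhibitor of the cell cycle named here after its values were seen. Cdkn1a stood at 6.16 ± 3.78 RPKM in dKO_Flt3ITD, 3.11 ± 1.53 in dKO and 0.742 ± 0.822 in control (SD, n = 4 each). Its log2 fold change was 1.94 ± 0.57 (SE) in dKO_Flt3ITD against control, with a limma adjusted p = 0.116 after Benjamini-Hochberg adjustment, and 1.25 ± 0.57 in dKO against control, with an adjusted p = 0.514.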

How the data were processed

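Full-length messenger RNA was amplified from 100 sorted cells per library (SMARTer, per the labels' protocols). Per the submitters' processing notes, TopHat2 2.0.10, SAMtools 0.1.19, HTSeq 0.5.4p5 and the mouse build mm10 were used. The authors deposited RPKM values, 1 table of 13016 genes and 12 libraries; the total behind each value and the use of strand are not stated in the labels or the file. Low values are whole multiples of 1 read, and all 13016 genes gave whole reads within 0.001, 13623436 to 33985972 per library. Some member values rest on few reads, such as 24 for Chek1 in dKO_Flt3ITD 2 and 1 for Fancd2 in control 3. Counting error was not compared with the spread between libraries, and reads amplified from few cells are not independent molecules.

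A gene entered the test where 4 or more of the 12 libraries reached 1 RPKM, which left 10690 genes. Values were transformed to log2(RPKM + 1) and fitted jointly over the 3 groups with limma 3.58.1 (R 4.3.3) and its trend option, leaving 9 residual degrees of freedom. P-values were adjusted over the whole table by the Benjamini-Hochberg method. This scale understates the change of low genes. Alternatives were pseudocounts of 0.1 and 0.5 RPKM, no filter, a filter at 5 RPKM, 2 scalings, no trend, array weights, a replicate block, voom on the recovered reads, the 8 compared libraries alone, and each library left out. Leaving out control 1, dKO 1 and dKO_Flt3ITD 1 together, and dividing summed RPKM by each library's total or median, were added after seeing the data. The steps were tested on simulated data. Positions and exon overlaps came from GENCODE M21 on GRCm38, the build that mm10 names, which placed all 55 genes, and promoters from RefSeq. Exons of 21 of the 55 genes overlapped those of another gene, and only some of these overlaps are named above. Brca2's promoter was chosen for printing after its motif was seen.

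The members, gene lists and tests were chosen with earlier results of these data known. A few members are counted in the totals but not reported here by name. Of the others, values in every library are given for called members, in each comparison the 4 members each way with the smallest p among those averaging at least 2 RPKM in the higher group, and the best known gene of each role. Of the other repair genes, called genes or the 2 with the smallest p per comparison are named. Means for other members were printed after seeing their values. Tables and plots were made in Python 3.11.15 with pandas 2.3.3, numpy 2.4.6, scipy 1.17.1 and matplotlib 3.10.9.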

Additional observations from a re-analysis of the deposited data

Results flagged for a closer look

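In 84 groups of 4 libraries, those of the 28 repair genes chosen for closer description, 8 held a library whose gap to the nearest other, divided by the group's range, passed Dixon's 95% critical value. For normally distributed values chance would give about 1 in 20 groups. These were untransformed RPKM values, and many of the genes were chosen for a small p. That rate therefore need not hold here, and the 8 are not read as an excess. No explanation of these values was tested. Ercc6l was 5.19 RPKM in dKO_Flt3ITD 4, against 0.135 to 0.848 RPKM in the other dKO_Flt3ITD libraries. Rad51c was 5.27 RPKM in the same library, against 0 in the others of its group, so both low group means of dKO_Flt3ITD come from 3 libraries each. Parp1 was 22.1 RPKM in dKO 1, against 41.2 to 43.1 RPKM in the other dKO libraries. Rad9b was 4.03 RPKM in dKO 3, against 0 to 0.640 RPKM. Fancg was 31.1 RPKM in control 1, against 13.2 to 16.01 RPKM in the other controls. Msh5 was 8.89 RPKM in control 1, against 1.37 to 2.13 RPKM. Rad9a was 28.2 RPKM in control 2, against 20.6 to 21.9 RPKM, and Ercc1 was 36.6 RPKM in control 3, against 19.5 to 22.1 RPKM.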

How the results depend on the processing

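The count of repair genes called in dKO_Flt3ITD against control, 1 in the main test, was 0 under 16 of 24 alternatives: pseudocounts of 0.1 and 0.5 RPKM, no filter, no trend, voom on the recovered reads, the 8 compared libraries alone, the 3 libraries numbered 1 left out together, and 9 of 12 single libraries left out, for a range of 0 to 1. It was 0 in dKO against control and in dKO_Flt3ITD against dKO under all 24. The count over all genes, 109 in dKO against control, was 64 with no filter, 210 with array weights, 5 with voom, 40 without the 3 libraries numbered 1, and 58 to 151 with single libraries left out. The count of 160 in dKO_Flt3ITD against control was 91 with no filter, 27 with voom, 103 without the 3 libraries numbered 1 and 87 to 184 with single libraries left out. The count of 0 in dKO_Flt3ITD against dKO in limma, where 824 genes had an unadjusted p under 0.05, was 1 with no filter, with the filter at 5 RPKM, with median-of-ratios scaling and with the 8 compared libraries, 2 with a fixed sum per library and with array weights, 3 without the 3 libraries numbered 1, and 0 to 6 with single libraries left out. The causes were not tested. The median log2 fold change of the repair genes ranged from -0.45 to -0.20 in dKO_Flt3ITD against control, -0.41 to -0.23 in dKO_Flt3ITD against dKO and -0.17 to 0.04 in dKO against control; the fixed sum moved the median of all genes to -0.21, -0.093 and -0.11 in these comparisons. Fancf in dKO_Flt3ITD against control reversed to -0.010 with voom. Replicate numbers did not pair the libraries, with correlations of same-numbered deviations from -0.147 to 0.126, and the replicate block gave 0, 1 and 0 repair genes and 85, 116 and 0 genes in dKO against control, dKO_Flt3ITD against control and dKO_Flt3ITD against dKO.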
